A study of Homo sapiens with 11 samples.

Results

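The sites described here were the Ikaros ChIP-seq peaks found in the 697 list and in none of 4 others, all from human lines of acute lymphoblastic leukemia of the B lineage (B-ALL). They were the peaks of the untreated 697 list on chromosomes 1 to 22 and X that shared no base with any peak of the other 4 lists. Of the 19610 peaks of the 697 list on these chromosomes, 996 met the rule, a share of 5.08% (95% exact Clopper-Pearson interval 4.78 to 5.40). The overlap chose them, so their absence from the other lists is a description and no result.

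The study mapped Ikaros binding in untreated 697 cells, in JM1 and Nalm6 cells given 20 µM of the CK2 inhibitor CX-4945 for 1 day, and in JM1 and REH cells left untreated. All are pre-B ALL lines grown in the same medium. Of 11 libraries, 6 were Ikaros precipitates, 2 of them from treated Nalm6, and 5 were inputs. Each condition had 1 peak list, so there were no replicate lists, no spread between samples and no test across samples. The labels name an affinity-purified antibody for 697 and Nalm6 and a Bethyl antibody for JM1 and REH. Differences between lists therefore carry line, antibody and, for 2 of them, treatment together, which cannot be told apart.

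Ikaros, the product of IKZF1, is a zinc finger DNA-binding protein needed for lymphoid development and often altered in B-ALL. It binds words with a GGGAA core, represses or activates genes with chromatin remodelling partners, and is phosphorylated by CK2, which lowers its DNA binding. It is known to bind promoters as well as distal elements and repeated sequence near centromeres.

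The lists were of unequal length, from 19652 peaks for 697 to 88692 for treated JM1. By the same overlap rule the share of a list found in no other was 28.3% in JM1 with and 8.46% in JM1 without CX-4945, 24.3% in REH and 14.6% in Nalm6, so 697, the shortest list, had the lowest share. Of the 697 peaks, 12531 overlapped a peak of each of the other 4 lists. The Nalm6 list skips 2479 of its 73373 peak numbers, so a Nalm6 peak not analysed here could overlap some of the sites. It also holds no peak without a gene name. The 697 list holds 511 of these, untreated JM1 1043, treated JM1 3103 and REH 2917. Of the 697-alone sites, 59 had no name, and for these the absence from the Nalm6 list cannot be read. Whether the skipped peaks were ones without a name was not tested. Of the lineage markers, PAX5 and EBF1 among 10 B lineage genes, CD5 among 6 T lineage genes, ELANE and ITGAM among 6 myeloid genes and none of 4 erythroid genes had a 697 peak within 1000 bp of a transcription start site (TSS). Over all 19962 protein-coding genes the share was 49.6%, and it was 27 of 32 in a longer list of B lineage factor genes, 11 of 22 in one of T cell genes, 5 of 18 in one of myeloid genes and 3 of 18 in one of erythroid genes. None of these short-list marker genes had a 697-alone site there, and since no expression was measured the peaks do not check the line's identity.

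Sequences of 7 sites are shown, chosen for the loci and the repeated sequence that the results turn on. They were read from the plus strand of the GRCh38 genome, 5′ to 3′. The first pair lies at CDKN2A and is shown because that locus held 4 sites in a stretch empty in the other lists. Capitals mark the GC box CCGCCC, the Ikaros word TGGGAA and the ETS word GGAAGT on either strand; no base of a CDKN2A exon is shown.
CDKN2A site with score 44, chr9:21974867-21975166: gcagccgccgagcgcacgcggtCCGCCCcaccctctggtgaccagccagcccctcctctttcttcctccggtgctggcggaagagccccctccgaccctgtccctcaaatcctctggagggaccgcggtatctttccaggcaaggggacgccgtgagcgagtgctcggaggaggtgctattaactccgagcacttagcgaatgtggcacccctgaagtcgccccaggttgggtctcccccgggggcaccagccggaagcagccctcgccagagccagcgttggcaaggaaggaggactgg
CDKN2A site with score 28, chr9:21994519-21994818: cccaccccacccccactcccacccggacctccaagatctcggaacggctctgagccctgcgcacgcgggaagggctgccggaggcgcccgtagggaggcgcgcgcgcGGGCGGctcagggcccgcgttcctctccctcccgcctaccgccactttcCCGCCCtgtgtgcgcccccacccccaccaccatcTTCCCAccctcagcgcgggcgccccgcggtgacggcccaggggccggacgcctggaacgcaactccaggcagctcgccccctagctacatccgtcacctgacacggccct

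Another pair of GC-rich sites lay far from any peak of the other lists, one between genes with PDGFD as the nearest named gene and one at the start of the pseudogene SP3P. The capitals mark the same 3 words, of which the PDGFD site held none.
PDGFD site with score 43, chr11:104366490-104366737: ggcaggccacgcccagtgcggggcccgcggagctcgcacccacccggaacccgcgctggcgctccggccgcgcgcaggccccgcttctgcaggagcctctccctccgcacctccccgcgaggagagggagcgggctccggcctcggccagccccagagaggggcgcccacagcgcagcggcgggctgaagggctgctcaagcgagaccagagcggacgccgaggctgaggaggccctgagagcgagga
SP3P site with score 37, chr13:89363215-89363464: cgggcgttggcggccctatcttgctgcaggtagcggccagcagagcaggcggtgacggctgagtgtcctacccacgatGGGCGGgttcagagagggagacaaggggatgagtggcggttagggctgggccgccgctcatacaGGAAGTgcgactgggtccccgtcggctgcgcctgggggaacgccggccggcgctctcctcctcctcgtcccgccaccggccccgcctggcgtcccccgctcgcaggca

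An intron site in GPC6 with a score of 42 is shown for its long run of alternating purines and pyrimidines. The longest such run of the window is in capitals.
GPC6 site, chr13:94030966-94031205: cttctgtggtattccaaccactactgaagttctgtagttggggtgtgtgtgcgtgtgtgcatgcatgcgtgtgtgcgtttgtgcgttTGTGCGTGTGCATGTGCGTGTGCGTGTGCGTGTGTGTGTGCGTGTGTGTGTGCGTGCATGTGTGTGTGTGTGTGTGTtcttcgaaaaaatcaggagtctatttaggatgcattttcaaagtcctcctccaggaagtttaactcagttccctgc

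The next shows repeated sequence found at several sites, with the word that was searched in capitals. It is the satellite word GGAATGGAAT, known from satellites near centromeres.
Chromosome 4 site without a gene name, chr4:49635159-49635358: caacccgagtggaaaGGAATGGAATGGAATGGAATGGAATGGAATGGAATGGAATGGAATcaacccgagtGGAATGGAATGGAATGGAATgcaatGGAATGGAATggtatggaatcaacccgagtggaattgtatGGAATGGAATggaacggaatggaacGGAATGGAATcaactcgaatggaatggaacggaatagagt

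The last is the highest-scored site with at least 2 copies of TGGGAA, in capitals, and none of the repeated words.
PSMB3P2 site, chr2:216617200-216617464: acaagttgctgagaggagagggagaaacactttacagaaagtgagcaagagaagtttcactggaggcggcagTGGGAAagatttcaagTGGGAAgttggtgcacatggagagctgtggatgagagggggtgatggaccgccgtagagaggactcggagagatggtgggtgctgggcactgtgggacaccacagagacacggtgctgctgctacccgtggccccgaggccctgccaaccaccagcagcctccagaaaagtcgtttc

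The locus on the short arm of chromosome 9 that holds MTAP and CDKN2A held 4 of the 697-alone sites close together. MTAP encodes an enzyme of the methionine salvage pathway. CDKN2A encodes the cell cycle inhibitor p16INK4a and, from another first exon, the p53 activator ARF, and the locus is known to be deleted in many B-ALL cases. In GRCh38, no peak of the other 4 lists touched the 457.5 kb from chr9:21696734-22154234, and the 697 list had 4 peaks in it. The genome held 5623 stretches of at least 100 kb without a peak of the other 4 lists. Of these, 5354 held no 697 peak, 261 held 1, 7 held 2, none held 3 and this one held 4. It was also the single stretch with 2 or more promoter sites.

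The CDKN2A site at chr9:21974706-21975249 had a score of 44, the highest of the 48 promoter sites in 697 alone, and 71.5% GC. It overlapped the first exon of p16INK4a transcripts, its centre lay 111 bp from the nearest CDKN2A TSS, and the nearest peak of another list was 179.0 kb away. Its score was above that of 87.1% of all 697 peaks and of 99.4% of 697-alone sites. The second CDKN2A site, at chr9:21994174-21995164, had a score of 28, 66.5% GC and exons of CDKN2A and of the antisense transcript CDKN2B-AS1 within it. Since a peak has no strand, it cannot be given to either gene. The MTAP promoter site at chr9:21802774-21803475 had a score of 18, 60.7% GC and a centre 154 bp from an MTAP TSS. The fourth, at chr9:21965006-21965629, had a score of 16 and was annotated as intronic, 1612 bp from the TSS of CDKN2A-DT, a noncoding gene beside CDKN2A. Among 697-alone sites the MTAP score was above 84.2% and the CDKN2A-DT score above 73.5%, but among all 697 peaks they were above only 32.2% and 23.8%. The second CDKN2A site was above 62.9% of all 697 peaks.

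CDKN2B, the other protein-coding gene of the stretch, had no site. The lists had different empty spans around the locus. Between the nearest shared 697 peaks, at MIR31HG and DMRTA1, lay 887.3 kb, which held the 4 sites alone. The REH list had no peak over 2906 kb and the Nalm6 list over 2220 kb, and in JM1 the empty span was 1464 kb with CX-4945 and 1992 kb without it. Within 500 kb of the CDKN2A site with the highest score the 697 list had 6 peaks, treated JM1 had 4, untreated JM1 had 1, REH had none and Nalm6 had 3. Copy number of the locus was not analysed here, so lack of binding and lack of the DNA in a line cannot be told apart.

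**Figure D1:**
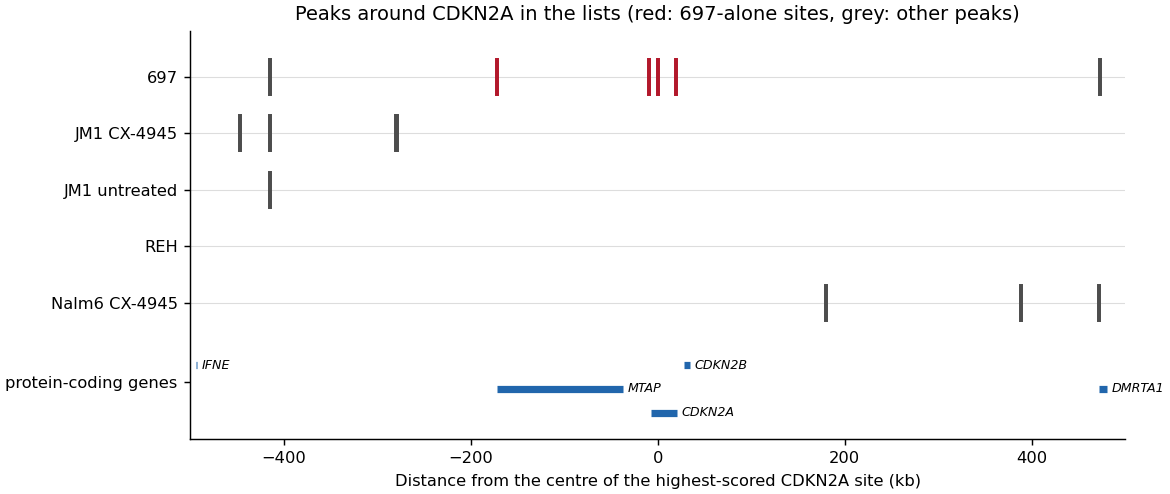
Peaks of the 5 lists (rows, 697 on top) and protein-coding genes against the distance in kb from the centre of the CDKN2A site with score 44. Red bars are the 4 sites in 697 alone, grey bars are all other peaks, and bars are wider than the peaks so that they can be seen. No bar of the other lists lies among the red ones, and the REH row is empty.

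Most 697-alone sites, counted with those of that locus, lay in introns and between genes. Introns held 466 sites, a share of 46.8% (43.7 to 49.9), against 23.4% (22.8 to 24.0) of the 18614 other 697 peaks. Intergenic sites made up 41.9% (38.8 to 45.0), against 12.8% of other 697 peaks. Promoters held 48 sites, 4.82% (3.57 to 6.34), against 42.7% (41.95 to 43.4). Exons held 28 sites, 2.81%, against 13.2%, and transcript ends held 37, 3.71%, against 7.93%. The promoter share was lower in 697-alone sites than in other 697 peaks on 23 of 23 chromosomes. The sites that each other list had alone were made up much the same way, with promoter shares from 4.90% in untreated JM1 to 5.76% in REH.

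**Figure D2:**
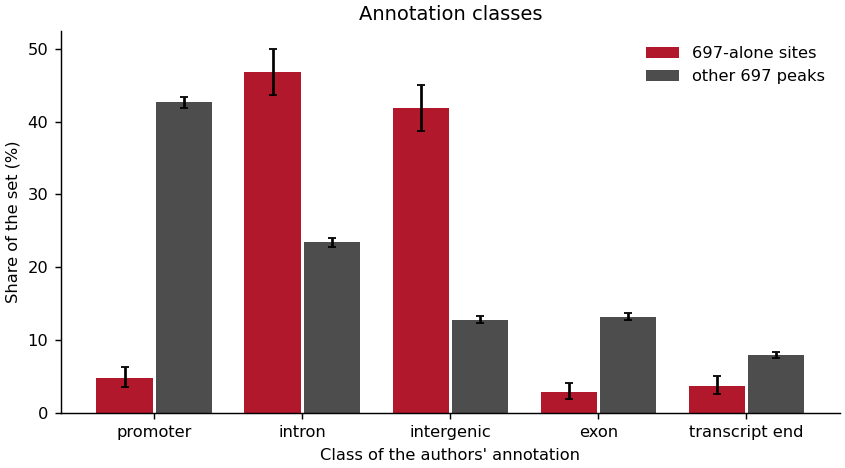
Share of 697-alone sites (red, n = 996) and of other 697 peaks (grey, n = 18614) in each class of the authors' annotation, in percent, with 95% exact intervals. Introns and intergenic sequence hold 46.8% and 41.9% of the 697-alone sites, and promoters hold 4.82%.

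The median distance of a site's centre to the nearest TSS was 12424 bp, against 362.5 bp for other 697 peaks. A protein-coding gene body held 46.9% of the sites, against 81.7% of other 697 peaks, and 9.84% touched an exon, against 72.4%. The authors' nearest transcript was protein-coding for 40.7% of the sites and 75.4% of other 697 peaks. It was a pseudogene for 19.2% against 3.65%, and a long noncoding RNA for 24.0% against 13.3%.

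Base composition differed widely between the 697-alone sites and the rest of the list. Their median GC content was 45.1% (quartiles 40.4 and 51.5), against 69.5% (quartiles 65.5 and 73.7) for other 697 peaks. GC was under 50% in 696 of the 996 sites and in 142 of the 18614 other peaks. Read the other way, 95.02% of the 241 697 peaks under 40% GC were in 697 alone (91.5 to 97.4). So were 78.2% of those from 40 to 50% GC, 13.2% of those from 50 to 60%, 0.586% of those from 60 to 70% and 0.682% of those at 70% or more. CpG dinucleotides numbered 0.870 per 100 bp in the median site, against 8.60 in other 697 peaks. The sites alone in the other lists had median GC contents of 51.0% (JM1 with CX-4945), 49.6% (JM1 without it), 52.4% (REH) and 53.0% (Nalm6).

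**Figure D3:**
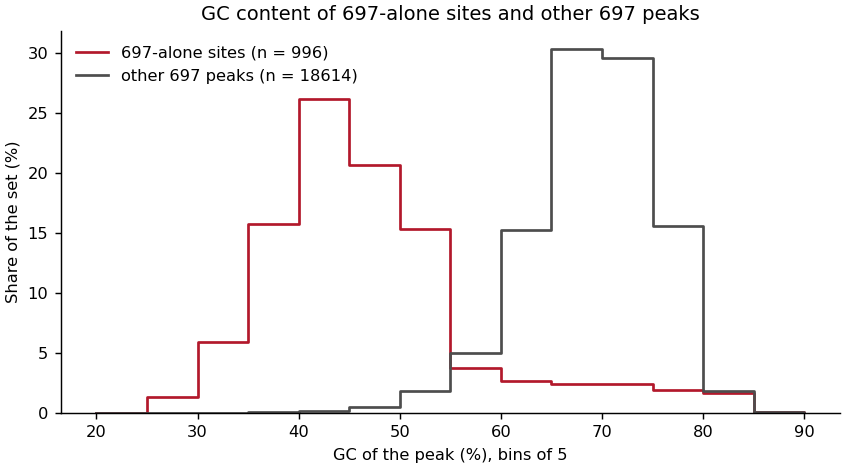
Distribution of GC content in 697-alone sites (red) and other 697 peaks (grey), as the percent of each set in bins of 5 percentage points. The 697-alone sites lie mostly between 35 and 55% GC with a low tail up to 85.8%, and the other 697 peaks mostly between 60 and 80%.

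The sites were also narrow and low in score, which bears on how firmly single sites can be read. The score is the authors' whole-number value for each peak, and the sources used here do not define it. Scores were compared within the 697 list only, and a check below ranked each other list by its own scores. The median was 13 (quartiles 12 and 16, highest 54), against 23 (quartiles 16 and 34, highest 427) for other 697 peaks, and 10 was the lowest score listed. The median width was 291 bp, against 655 bp. Of the sites, 49.6% had a score from 10 to 12, against 7.83% of other 697 peaks, and 91 had a score above 20. The share of 697 peaks in 697 alone was 25.3% (23.4 to 27.3) at scores from 10 to 12, 8.74% from 13 to 15, 4.57% from 16 to 20, 1.41% from 21 to 30 and 0.315% (19 of 6037) at 31 or more.

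Among peaks of like score the sites were also lower in GC, by less at high scores. At scores from 10 to 12 the 494 sites had a median GC of 43.8% and a promoter share of 4.45%, against 63.4% and 22.4% for other 697 peaks of those scores. Among the 697-alone sites the median GC was higher in each higher score bin, at 43.8%, 45.2%, 47.4%, 51.4% and 66.4% in the order of bins above, against 63.4%, 65.7%, 67.4%, 69.8% and 73.3% for other 697 peaks. The 19 sites scored at 31 or more thus had a different makeup from the 494 at the low end, with a promoter share of 21.1%, against 57.4% of other 697 peaks of that score.

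**Figure D4:**
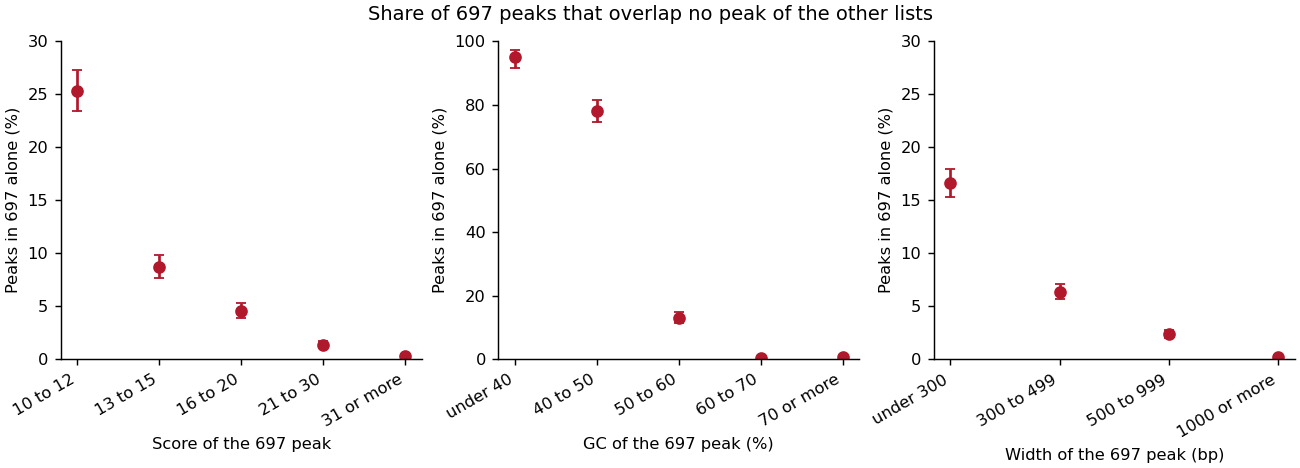
Share of 697 peaks that were in 697 alone, in percent with 95% exact intervals, by the score, GC content and width of the peak. The vertical axis runs to 100% in the GC panel and to 30% in the others. The share is 95.02% below 40% GC and 25.3% at scores from 10 to 12, and under 1% at 60% GC or more and at scores of 31 or more.

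Of the 19 sites with scores of 31 or more, 10 had at least 65% GC, 4 were promoter sites and 6 held an alternating purine-pyrimidine run of at least 25 bp. The highest was the intron site in CDH13, an atypical cadherin gene, at chr16:83510948-83511270 with a score of 54. Next among introns was a site at chr3:79568956-79569325 in ROBO1, an axon guidance receptor gene, with a score of 46 and 34.6% GC. A site in GPC6, a glypican gene, at chr13:94030965-94031206 had a score of 42. Each of these 3 holds an alternating run, as printed above for GPC6. The nearest peak of another list was 28.8 kb from the CDH13 site, 155.8 kb from the ROBO1 site and 130.9 kb from the GPC6 site. The next intron sites lay in GYG2, a glycogenin gene (score 34), CHN2, a chimaerin gene (33), TMEM71 (33), MYO16, a myosin gene (31), UBE2W, a ubiquitin-conjugating enzyme gene (30), and nearest to AC011611.2 (30) and RPGR, a ciliary gene (29).

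The highest intergenic site, nearest to the pseudogene ANKRD26P1 at chr16:46390519-46390936, had a score of 48 and 36.1% GC. Sites near AC093392.2 (score 46), RPL23AP84 (44, with 85.8% GC) and PDGFD (43, 77.0% GC) followed. PDGFD encodes a platelet-derived growth factor, but its TSS was 202234 bp from the site. The remaining top intergenic sites were near PSMB3P2 (38), ACTR3C (33), SLITRK1 (31), ZNF90P2 (31), UGT8 (30) and AC009969.1 (30). The nearest peak of another list was 198.2 kb from the PDGFD site, 163.9 kb from the ACTR3C site and 77.8 kb from the SLITRK1 site, but only 1.89 kb from the PSMB3P2 site.

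The promoter sites after CDKN2A were at SP3P (score 37), NUDT11 (31), FAM41C (31), the second CDKN2A site, CMAHP (25), GOLGA8A (22), MTAP (18), AC099654.2 (18) and ARHGEF10 (18). NUDT11 encodes a phosphohydrolase of inositol polyphosphates. Its site at chrX:51496722-51497083 had 71.3% GC, and its nearest peak in another list was 88.4 kb away. The GOLGA8A site belongs to a family of near-identical genes, so its reads may be shared with copies. Among transcript ends the highest scores were at SLC39A8, a metal transporter gene (19), SPAG9 (17), the aromatase gene CYP19A1 (17), AC007952.4 (15) and DIO1, a deiodinase gene (15). Among exons they were at AC009951.4 (23), which lies within ZEB2, and at PNISR (21), DENND1A (20), HNRNPCP8 (18) and AC011225.1 (16).

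Combining composition and distance, 14 of the 84 sites with at least 65% GC lay 50 kb or more from any peak of the other lists. They included both CDKN2A sites and the PDGFD, SP3P, NUDT11 and SLITRK1 sites, the other 8 having scores from 12 to 19.

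Repeated sequence was found in the 697-alone sites in several forms, with words picked from the sites themselves after their sequences had been seen and no support drawn from the choice. The tandem repeat word CGCCCCGTCCGG, on either strand, was in 33 sites, 3.31% (2.29 to 4.62). It was in 0.381% (0.298 to 0.481) of other 697 peaks and in 0.151% of 1992 regions of each site's length beside it. The 33 sites lay on 15 chromosomes, 21 in introns and 12 between genes, with a median GC of 80.0% and scores from 11 to 26. The highest, with scores of 26, were near MTND5P2, in an intron of DNAJC3, near SHC1P2 and in SNX8.

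This word was also in 1.19% (0.988 to 1.42) of the sites in Nalm6 alone, but in 0.0641% of those in REH alone and, in JM1, 0.0599% of those alone with CX-4945 and 0.0316% of those alone without it. The second GC-rich word, GAGGGGCTTAGCAC, was in 8 of the 697-alone sites, 0.803% (0.347 to 1.58), against 0.349% of other 697 peaks. It was in 1.17% (0.971 to 1.39) of the sites in Nalm6 alone, in 0.187% of those in REH alone, and in 0.148% and 0.0316% of those in JM1 alone with and without CX-4945. Among sites alone in a list, both words thus had higher shares in 697 and Nalm6 (affinity-purified antibody) than in JM1 and REH (Bethyl antibody). Over whole lists the contrast was smaller. The tandem repeat word was in 0.322% of all Nalm6 peaks, 0.101% of REH, 0.107% of treated JM1 and 0.102% of untreated JM1 peaks. The second word was in 0.498%, 0.260%, 0.234% and 0.0855%, in the same order. The part of the antibody was not tested.

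For the second GC-rich word and each sequence below, at least 1 comparison set had a share within the interval of the 697-alone sites. The satellite word GGAATGGAAT was in 9 sites, 0.904% (0.414 to 1.71), against 0.188% of other 697 peaks and 1.31% (0.854 to 1.91) of the flanking regions. The 9 sites were intergenic, on 4 chromosomes. The CA repeat word CACACACACACA was in 47 sites, 4.72% (3.49 to 6.23), against 3.06% of other 697 peaks and 4.40% of REH-alone sites. Alternating runs were in 41 sites, 4.12% (2.97 to 5.54), against 3.804% (3.53 to 4.09) of other 697 peaks, intervals that overlap. Sites with a run had higher scores within the set, 17 of the 41 being above 20. In all, 33 of the 106 sites with any of these sequences had a score above 20, 31.1%, against 58 of the 890 without, 6.52%. The sequences were picked after the sites had been seen, so these differences in score are a description and were not tested.

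**Figure D5:**
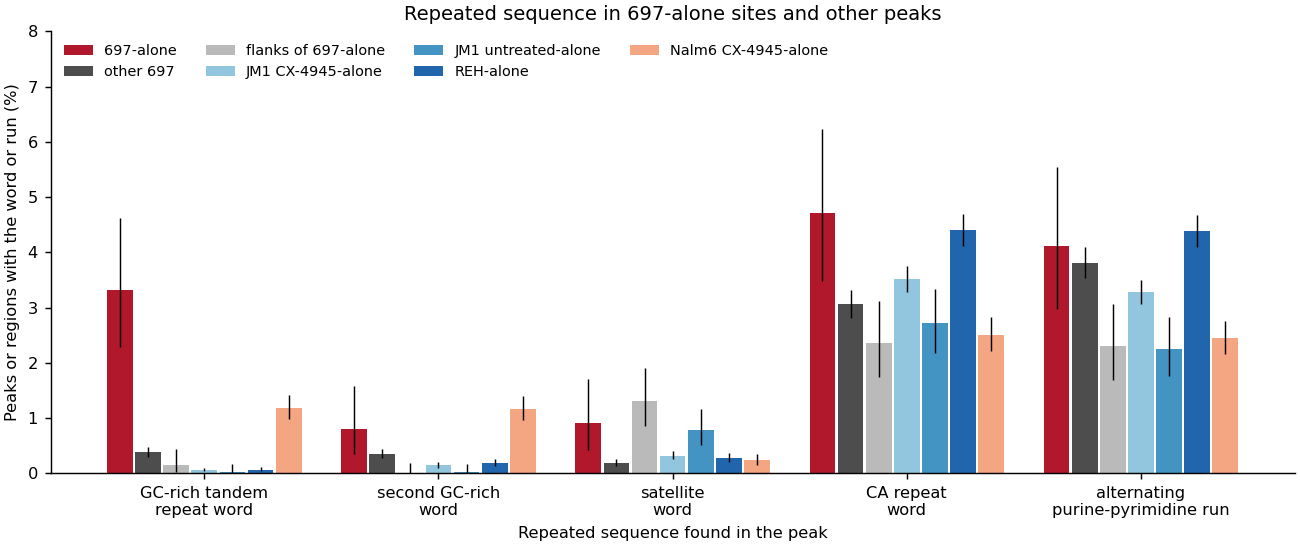
Share of peaks or regions holding each repeated sequence, in percent with 95% exact intervals, for 697-alone sites (red), other 697 peaks, flanking regions and the sites that each other list had alone. The tandem repeat word is in 3.31% of 697-alone sites and 1.19% of Nalm6-alone sites, and in under 0.1% of those alone in the other 3 lists.

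Whether a window can be placed uniquely was measured by its 31-base words. In 11.1% (9.26 to 13.3) of the sites most such words of the central 200 bp occurred more than once in the genome, against 6.51% (6.16 to 6.88) of other 697 peaks and 15.5% (13.97 to 17.2) of flanking windows. Among the sites the share was 7.89% at scores from 10 to 12, 11.2% from 13 to 20 and 28.6% at 21 or more. The sources used here do not say how reads that align to several places were treated, and the part of such reads in these scores was not tested.

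The Ikaros word TGGGAA, on either strand of the central 200 bp, was in 203 sites, 20.4% (17.9 to 23.02), against 11.95% (11.5 to 12.4) of other 697 peaks and 17.0% (15.3 to 18.7) of windows 1000 bp beside the sites. The interval overlaps that of the flanking windows. Sites alone in the other lists held it in 18.4 to 21.04%. Among windows under 50% GC it was in 19.3% (16.4 to 22.5) of 697-alone sites and 13.95% (10.7 to 17.8) of other 697 peaks, and from 50 to 65% GC in 17.3% and 17.7%. At 65% GC or more it was in 33 of 91 windows, 36.3% (26.4 to 47.0), against 10.1% (9.59 to 10.6). Of those 33, 22 sites held the tandem repeat word and 27 windows were made mostly of words that occur more than once in the genome.

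Over the whole site 304 sites held at least 1 copy of TGGGAA and 75 held at least 2, with 5 the most in any site. The shorter core GGGAA was in 43.5% (40.4 to 46.6) of the sites, 46.0% of other 697 peaks and 39.2% of flanking windows. Its 5 letters lie within TGGGAA, so the 2 shares count some of the same places.

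Words of other factors followed composition in part. The GC box CCGCCC was in 8.33% (6.69 to 10.2) of the sites, against 50.4% of other 697 peaks and 3.01% of flanking windows. Of 35116 RefSeq promoters of 300 bp (GRCh38.p14), 45.0% hold it, and 24.0% hold TGGGAA and 22.8% hold GGAAGT. These promoters are longer than the 200 bp windows, so their shares cannot be compared directly with those of the windows. The ETS word GGAAGT, which shares letters with the Ikaros core, was in 13.8% (11.7 to 16.05) of the sites, against 8.83% and 10.9% (9.61 to 12.4). The E-box CAGGTG was in 13.1% (11.02 to 15.3), against 22.2% of other 697 peaks, 14.96% of flanking windows and 21.3 to 25.6% of the sites alone in the other lists. CAGCTG was in 10.6%, against 14.8% and 7.38%, and CACGTG in 2.81%, against 5.70% and 1.71%. The RUNX word TGTGGTT was in 3.21% against 1.27% and 3.11%, and the AP-1 word TGACTCA in 3.51% against 1.49% and 3.66%. A word found in a window is a description of its letters and no evidence of binding.

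Few genes had a 697-alone site at their start. Of 19962 protein-coding genes, 34 had one within 1000 bp of a TSS, 0.17%, and 467 had one in the gene body, 2.34%, whereas 9909, 49.6%, had any 697 peak near a TSS. For 7 of these 9909 genes no other list had a peak near a TSS. They included CDKN2A, MTAP, NUDT11, ROS1, GALNT5 and KRTAP5-3, named because they are few. ROS1 is a receptor tyrosine kinase gene, GALNT5 encodes a glycosyltransferase and KRTAP5-3 a hair keratin-associated protein. The sites at ROS1 and GALNT5 had a score of 12 and that at KRTAP5-3 a score of 14, near the bottom of the list, and 3 of the 7 genes had a site scored above 14. The count of 34 genes was 54 without the REH list and 57 without the Nalm6 list.

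The authors' nearest-gene column gave the sites 900 names of the 36451 in the 5 lists, 2.47%, and 59 sites had none. Of the names, 112 were given to no peak of the other 4 lists and 586 to no other 697 peak. Y_RNA, a name shared by many small RNA genes, had 9 sites and 29 names had 2. They include CDKN2A, CMAHP, TMEM71, the circadian factor gene NPAS2, the protein kinase C gene PRKCB, the guanine exchange factor gene DOCK1 and the contactin gene CNTN5.

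The 18 gene lists of B cell, leukemia and other tissue genes held few sites, and none of the listed genes other than CDKN2A had one near a TSS. Of 378 listed protein-coding genes matched, 10 had a site in the body, 2.65% (1.28 to 4.81), close to the 2.34% of all protein-coding genes. ROR1, which encodes a receptor tyrosine kinase-like protein, had an intron site. This site at chr1:63993147-63993467 had a score of 18, 41.1% GC and 1 TGGGAA, and the nearest peak of another list was 84.2 kb away. Of 32 B lineage factor genes, BACH2 (score 12) and ZEB2 (23) had a site in the body, and of the pre-B cell receptor and surface genes, MME, which encodes CD10, had one (12). Of 32 cell cycle genes, CDKN2A and the retinoblastoma gene RB1 (12) did.

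Of 26 adhesion genes, the endothelial and leukocyte adhesion gene PECAM1 (27) and the cadherin gene CDH1 (13) had a site in the body. PIP5K1B, a phosphoinositide kinase gene, had one with a score of 24, and CD247, a T cell receptor chain gene, had one with a score of 12. The Ikaros family, the recombination genes, the 17 BCL2 family genes, the CK2 subunits, and the lists of JAK-STAT and NF-kB signalling, chromatin regulators, Notch, WNT and Hedgehog signalling, myeloid, erythroid, neuron, and liver, muscle and pancreas genes had none. This is a count of 697-alone sites and not of binding. A 697 peak near a TSS that another list shared was found for 16 of the 17 BCL2 family genes. So it was for 4 of 5 Ikaros family, 4 of 10 recombination, 2 of 4 CK2 subunit and 19 of 22 JAK-STAT and NF-kB genes. The counts were 30 of 32 for chromatin regulators and 28 of 32 for Notch, WNT and Hedgehog genes. They were 5 of 18 for myeloid, 3 of 18 for erythroid, 12 of 20 for neuron and 7 of 22 for liver, muscle and pancreas genes. Any 697 peak near a TSS was found for 245 of the 378 listed genes and for 49.6% of all 19962 protein-coding genes.

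The sites were spread thinly over the genome. The share of a chromosome's 697 peaks that were in 697 alone ran from 0.995% (0.617 to 1.52) on chromosome 19 to 11.5% (8.52 to 15.1) on chromosome 13. The median distance from a site to the next was 1705 kb, and 46 of 973 neighbouring pairs lay within 100 kb. Of the windows of 1 Mb with a site, 641 held 1, 130 held 2, 25 held 3 and 5 held 4.

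The 5 windows with 4 sites were unlike each other. One was the CDKN2A locus. On chromosome 4 the 4 sites lay between chr4:49126293-49643010, far from any named gene, and all 4 held the satellite word. All 4 lack a gene name in the 697 list, and the Nalm6 list holds no peak without one, so their absence there cannot be read. On chromosome 15 they lay in or at CYP19A1, LYSMD2, TMOD3 and MAPK6, with scores from 11 to 17. On chromosome 12 they lay in BLTP3B (listed as UHRF1BP1L) and SCYL2 and near GOLGA2P5 and GAS2L3, with scores from 12 to 22. On chromosome 22 they lay near noncoding genes such as Z82186.1, with scores from 12 to 24.

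Many sites were not far from a peak of another list. The median gap was 7270 bp (quartiles 1875 and 25581), the largest was 376337 bp, 96 sites lay within 500 bp and 259 within 2000 bp. The nearest peak belonged to treated JM1 for 387 sites, to REH for 369, to Nalm6 for 178 and to untreated JM1 for 62, the lists being of different lengths. Just inside the rule, a promoter site at HIST1H2BE (score 12) adjoined a peak of another list with a gap of 0 bp, and sites at LINC00511 (score 15) and AC011225.1 (16) had gaps of 9 and 13 bp. Just outside it, 697 peaks in PTPN9 (17) and IGF2BP2 (11) shared 3 and 5 bp with one.

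The number of sites depended on the lengths of the other lists. With each comparison list limited to its top-scored peaks, as many as the 697 list holds, 2858 of the 697 peaks overlapped none. Keeping only 697 peaks with at least the list's median score left 71 sites.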

How the data were processed

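Ikaros ChIP-seq of 11 libraries from human B-ALL lines was deposited as 5 peak lists, 1 per condition, and grouped by line and treatment in the titles. Per the labels' protocols, BBDuk removed low-quality sequence from paired-end reads. The tools and build, per the submitters' processing notes, were GRCh38, HOMER 4.10, MACS2 2.1.1 and Bowtie2 2.3.4.3. Per the file headers, the deposited score, position, class and nearest gene of a peak are the authors' own values. The sources used here do not give the settings or controls of the peak calls, what the score is, or whether the Nalm6 list joins its 2 Ikaros libraries. Read depth was not analysed here, and longer lists leave fewer 697 peaks alone.

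Overlap was at least 1 bp. GC content, words and 31-base word copies were read from GRCh38, and TSSs from GENCODE release 44, with 0 peaks past a sequence end. The planned repeat-masked share could not be had, since the genome used holds capitals only. Shares have 95% exact Clopper-Pearson intervals, which cover counting error only, and with 1 list per condition no p-value was computed. The functions for the overlap and gap between peaks and for the copies of 31-base words were tested on simulated data. Named genes were those of the 10 highest-scored promoter, intron and intergenic sites, the 5 highest at transcript ends and exons, the names with most sites, the 5 densest windows of 1 Mb and the listed genes with a site. Of the 29 names tied at 2 sites, 7 are named, chosen after their values were seen. The sites, lists and words were chosen with earlier results of these data known. Python 3.11.15, numpy 2.4.6, pandas 2.3.3, scipy 1.17.1 and pysam 0.24.0 were used. Some genes, words and sequences examined are not reported here.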

Additional observations from a re-analysis of the deposited data

Results flagged for a closer look

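The 697 list held 4 peaks on the mitochondrial sequence, which lies outside the chromosomes analysed, and the other 4 lists held none. Their scores were 906, 583, 357 and 642, all above 54, the highest score of a 697-alone site, and they were 967, 1725, 1691 and 4171 bp wide. They stand out as a signal in data that no comparison above used. The sources used here do not say whether mitochondrial reads were removed for the other lists.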

How the results depend on the processing

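No paired analysis was possible because each condition had 1 peak list and the lists carry no replicate numbers. Limiting each comparison list to its top-scored peaks gave 2858 sites in place of 996, a promoter share of 10.0%, a median GC of 59.1%, a median score of 14, TGGGAA in 17.8% and 362 genes with a site near a TSS. Keeping 697 peaks with at least the median score gave 71 sites, with 9.86% in promoters, a median GC of 53.6%, a median score of 26, TGGGAA in 14.1%, 29.6% of windows mostly of multicopy words, 3 genes near a TSS and 11 names absent from the other lists. The median GC was 44.5% and 43.9% when peaks within 500 and 2000 bp counted as shared, 46.2% when 50% of the 697 peak had to be overlapped, and 46.45%, 46.45% and 46.8% without the treated JM1, REH and Nalm6 lists. Genes with a site near a TSS, 34 as reported, numbered 21 with the 2000 bp rule, 62 with the 50% rule, 54 without the REH list, 57 without the Nalm6 list and 154 with a TSS window of 5000 bp. Without the Nalm6 list 13.8% of windows were mostly of multicopy words. TGGGAA was in 10.1% of windows of 100 bp and 34.5% of windows of 400 bp. Names absent from the other lists, 112 as reported, were 7 when counted as genes with a TSS within 1000 bp. The other alternatives stayed within 1.5 times the reported count or within its interval. The cause of these moves was not tested. The repeat-masked share was not run. Distances and grouping had no alternative. The multicopy measure, the flanking regions and the repeated words were added after seeing the data.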
